A study of Mus musculus with 24 samples.

Results

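The comparison set 6 MC38 tumour libraries against 6 B16 tumour libraries, 12 of the 24 libraries of the study. The members were chosen by their labels: all 12 came from tumours of parental cells with intact CHEK2 (WT), and the 12 libraries from CHEK2-knockout cells entered only 1 alternative fit. The study measured RNA in mouse tumour tissue of either cell line, with or without CHEK2, after PBS or an antibody to PD-1. The 4 groups used here were MC38 WT with PBS, MC38 WT with anti-PD-1, B16 WT with PBS and B16 WT with anti-PD-1, with 3 libraries each. The labels give no age, sex, site of injection or dose, and do not say that each library came from its own mouse, so the p-values measure the spread between these libraries. The tumour line and anything that was done separately for the lines, such as RNA preparation or sequencing, cannot be told apart.

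MC38 is a mouse colon carcinoma line and B16 a mouse melanoma line. Melanocytes derive from the neural crest, and their pigment genes are switched on by the transcription factor MITF together with SOX10. Enterocytes and other cells of the gut lining carry their own factors, CDX1 and CDX2, and epithelial keratins and cadherins. A tumour grown in a mouse also holds host cells, among them T cells, macrophages, fibroblasts and vessels. In the bulk RNA of a tumour a lower marker level can mean fewer cells of a type or less RNA per cell, and these cannot be told apart here.

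Levels are FPKM (fragments per kilobase of transcript, scaled to the mapped fragments of the library), and differences are MC38 minus B16 on the log2(FPKM + 1) scale with treatment as a covariate, so they understate the change of genes at a low level. A gene was tested where at least 3 of the 12 libraries reached 1 FPKM, which left 14690 genes, and was called at a limma adjusted p under 0.05. A gene that passed this filter only through the line in which it was high had to differ. Chek2, the kinase gene targeted elsewhere in the study, was looked at first, and its RNA was present in all 12 libraries. Its level was 4.61, 5.37 and 6.14 FPKM (lowest, median and highest library) in MC38 and 7.17, 7.78 and 9.29 FPKM in B16, with a difference of -0.48 ± 0.072 (SE, limma adjusted p = 5.08e-05). The 6 lowest Chek2 levels were those of MC38. No knockout library was set beside these levels, so they do not test the labelled genotype. Each library held about 1.47e+07 to 1.98e+07 fragments, as estimated from the smallest steps of the values. Pairs of libraries of the same line had Pearson correlations across genes of 0.959 to 0.986, and pairs of different lines of 0.735 to 0.793 (log2 scale, genes are not replicates).

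Most genes differed between the tumour lines. Of the 14690 genes, 5450 were called higher in MC38 (37.1%) and 5349 higher in B16 (36.4%), and the median difference over all genes was 0.0024. With a difference of at least 2-fold added to the rule, 2041 genes were higher in MC38 (13.9%) and 1471 higher in B16 (10.0%). For 8105 genes (55.2%) the 6 libraries of one line lay entirely above those of the other. A count within a gene group is therefore read against these shares.

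**Figure D1:**
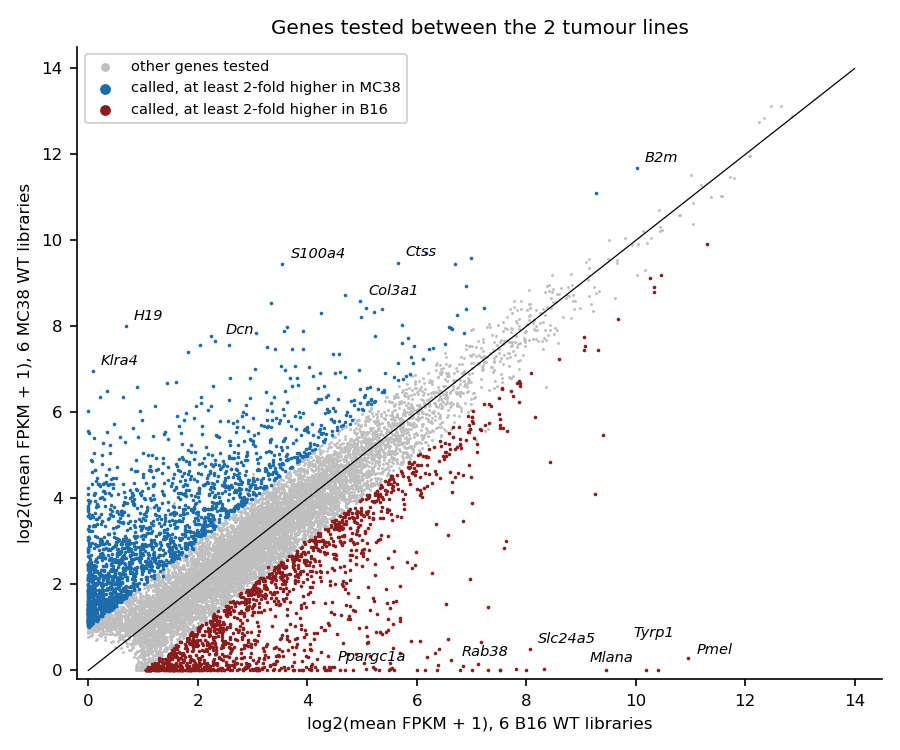
Mean level of each of the 14690 tested genes in the 6 B16 WT libraries (x axis) and in the 6 MC38 WT libraries (y axis), both as log2(mean FPKM + 1). Each point is a gene, coloured points were called with at least a 2-fold difference, and the line marks equal levels. The pigment genes Pmel, Tyrp1 and Mlana lie at the right edge near 0 on the MC38 axis, and H19, Klra4 and S100a4 lie far above the line.

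The pigment enzymes are shown first by their promoters, since they lie among the largest differences between the tumours. Tyr, Tyrp1 and Dct encode the enzymes that make melanin, and the core of the MITF binding motif is CATGTG (the M-box core, searched on both strands, where it reads CACATG on the other). The windows run from 250 bases before to 50 after the RefSeq start (GRCm38.p6), and the capitals mark each match. The Tyr window is chr7:87493463-87493762 on the minus strand, with 1 match starting 21 bases before the start of transcription. The Tyrp1 window is chr4:80833963-80834262 on the plus strand, with 1 match 46 bases before the start. The Dct window is chr14:118052197-118052496 on the minus strand, with matches 232 and 150 bases before the start.
Tyr: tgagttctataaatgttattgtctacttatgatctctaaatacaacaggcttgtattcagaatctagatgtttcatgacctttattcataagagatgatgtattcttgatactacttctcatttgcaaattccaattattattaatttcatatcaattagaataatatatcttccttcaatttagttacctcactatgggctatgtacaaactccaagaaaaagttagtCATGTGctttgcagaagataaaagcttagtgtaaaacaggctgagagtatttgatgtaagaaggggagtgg
Tyrp1: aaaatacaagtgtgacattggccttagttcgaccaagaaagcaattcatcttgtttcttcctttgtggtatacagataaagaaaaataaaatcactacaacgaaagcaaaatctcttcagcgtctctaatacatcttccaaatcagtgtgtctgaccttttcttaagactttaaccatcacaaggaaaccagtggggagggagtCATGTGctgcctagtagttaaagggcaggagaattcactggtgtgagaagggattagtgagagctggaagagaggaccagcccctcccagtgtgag
Dct: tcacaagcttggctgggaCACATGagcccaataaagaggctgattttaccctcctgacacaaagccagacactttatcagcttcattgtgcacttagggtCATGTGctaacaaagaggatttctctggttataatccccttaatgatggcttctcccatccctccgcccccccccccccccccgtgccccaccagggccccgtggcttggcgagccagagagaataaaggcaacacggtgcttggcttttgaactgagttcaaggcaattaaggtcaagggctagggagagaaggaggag

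Among all windows of that set, 4650 of 32851 promoter windows of 300 bases held the M-box core (14.2%). Of 18 listed melanin and melanosome genes, 13 had a window, and 8 of their 15 windows held it (53.3%), from Dct, Oca2, Slc24a5, Slc7a11, Trpm1, Tyr and Tyrp1. The related E-box CACGTG, which differs from it in 1 base and so cannot be the same match, was in 4 of the 15 windows (26.7%) against 7.15% of all windows. A match describes the letters of the window and no binding was measured.

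The melanocyte program was all but absent from MC38 and high in B16. All 8 melanocyte markers were higher in B16, with a median difference of -8.73 on the log2 scale, against 0.0024 over all genes. Their summed level was 1.65 to 2.84 FPKM in the MC38 libraries and 5372 to 6281 FPKM in the B16 libraries, a ratio of medians of 2854. Both treatments of B16 lay in the same range. Of the 8 markers, 7 stayed under 1 FPKM in every MC38 library and passed the filter only through B16, so for them the filter itself favoured that direction.

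Pmel, the protein of the fibrils on which melanin is laid down, stood at 0.126, 0.179 and 0.346 FPKM in MC38 and 1751, 1957 and 2231 FPKM in B16, a difference of -10.67 ± 0.071 (SE, limma adjusted p = 2.41e-17). Tyr, the rate-limiting enzyme of melanin synthesis, was listed at 0 in all 6 MC38 libraries and at 95.5, 109.8 and 129 FPKM in B16, a difference of -6.79 ± 0.067 (SE, limma adjusted p = 8.67e-16). Tyrp1 was likewise listed at 0 in every MC38 library and at 1223, 1334 and 1577 FPKM in B16. Pmel and Tyrp1 had the largest differences of all 14690 genes, and no library of either line came near the other. Dct did not exceed 0.0123 FPKM in MC38 and reached 1089 to 1294 FPKM in B16. Mlana, a melanosomal membrane protein and T cell antigen of melanoma, and Slc45a2, a transporter of the melanosome, were listed at 0 in all 6 MC38 libraries. In B16 they stood at 654 to 745 FPKM and 229 to 294 FPKM. Slc24a5, an ion exchanger of the pigment cell, was at 0.266 to 0.557 FPKM in MC38 and 224 to 312 FPKM in B16, and Rab38, which carries enzymes to the melanosome, at 0.0341 to 0.270 FPKM and 121 to 159.8 FPKM.

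Over the wider list of melanin and melanosome genes, 16 of 18 were higher in B16, 1 was higher in MC38 and 1 was not called (median difference -5.71). The exception was Rab32, a small GTPase that also serves other organelles, at 33.8 to 39.9 FPKM in MC38 and 13.6 to 18.2 FPKM in B16, a difference of 1.14 ± 0.074 (SE, limma adjusted p = 2.38e-08). The gene not called was Slc7a11, a cystine transporter named after its value was seen, at 0.29 (limma adjusted p = 0.0721) with overlapping libraries. The 18 genes together made up 1.96% to 2.29% of the FPKM sum of the B16 libraries, and 0.0205% to 0.0238% of that of the MC38 libraries. Of the 18, 12 stayed under 1 FPKM in every MC38 library and so passed the filter only through B16.

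The regulators of the lineage went with the pigment genes. Mitf stood at 1.42, 1.76 and 2.37 FPKM in MC38 and 132, 156 and 173 FPKM in B16, a difference of -5.82 ± 0.072 (SE, limma adjusted p = 5e-15). Sox10 was at 0 to 0.177 FPKM in MC38 and 96.6 to 121 FPKM in B16, and S100b, a calcium-binding protein of neural crest derivatives, at 0.0459 to 0.319 FPKM and 81.3 to 111 FPKM. Both genes were at least 2 orders of magnitude apart. Of 20 listed neural crest regulators 9 stayed under 1 FPKM in every MC38 library. Those of them that were tested passed the filter only through B16, so for them the filter itself favoured that direction. Of all genes 36.4% were called toward B16 and 37.1% toward MC38. Of the 20 regulators 16 were tested, 14 were higher in B16 and 2 in MC38 (median difference -2.28). Those 2 were Sox9, a factor of cartilage, gut crypts and neural crest, and Snai2. Sox9 was at 21.3, 23.7 and 28.3 FPKM in MC38 against 0.895, 1.13 and 1.53 FPKM in B16, a difference of 3.54 ± 0.09 (SE, limma adjusted p = 4.2e-12) in the direction opposite to Sox10. Snai2 was at 5.89 to 14.5 FPKM in MC38 and 3.13 to 5.25 FPKM in B16.

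Further genes with the largest differences toward B16 lay outside the pigment lists. Syt4, a synaptotagmin, was at 281 to 419.6 FPKM in B16 and 0 to 0.0586 FPKM in MC38. Ptgds, a prostaglandin D synthase, was at 195 to 289 FPKM in B16, Gsta1, a glutathione transferase, at 164 to 199 FPKM, Tspan10, a tetraspanin, at 159.5 to 213 FPKM, and Car14, a carbonic anhydrase, at 118 to 138 FPKM. None of these 4 exceeded 0.0919 FPKM in an MC38 library. Gsta1 has near-identical relatives, so its share of their reads is uncertain.

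**Figure D2:**
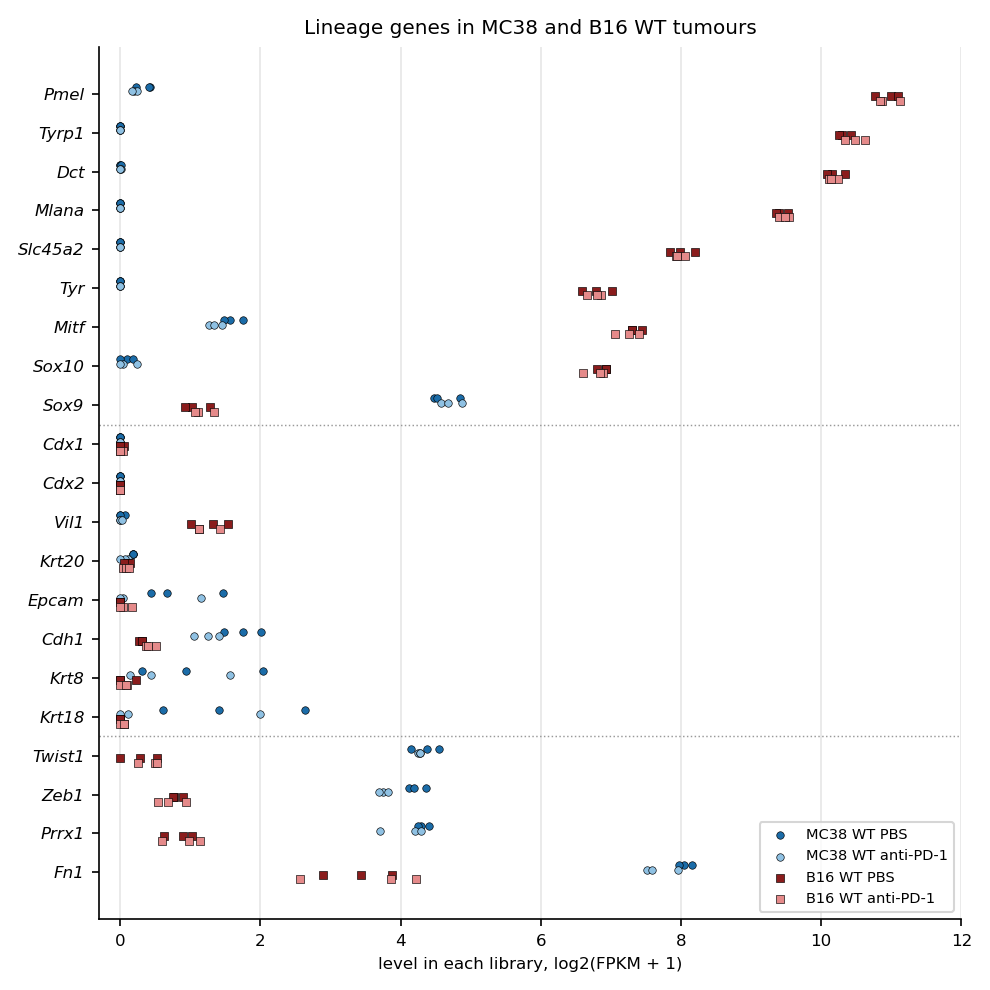
Level of 21 lineage genes in each of the 12 libraries, as log2(FPKM + 1). Each marker is a library, circles are MC38 and squares B16, dark is PBS and light is anti-PD-1, and dotted lines part the melanocyte, gut and epithelial, and mesenchymal genes. The pigment genes separate fully, Cdx1 and Cdx2 lie at 0 in MC38, and Twist1, Zeb1, Prrx1 and Fn1 lie higher in all 6 MC38 libraries.

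The label of MC38 as a colon tumour was not matched by markers of gut epithelium. Of 22 listed intestinal markers 20 stayed under 1 FPKM in all 6 MC38 libraries, and the summed level of the list overlapped between the lines (3.12 to 5.09 FPKM in MC38 and 3.28 to 5.57 FPKM in B16). Cdx1 and Cdx2, the factors of intestinal identity, were listed at 0 in every MC38 library, and Krt20, a keratin of differentiated gut cells, did not exceed 0.139 FPKM. Only 3 of the 22 genes were tested, of which 1 was called higher in MC38 and 2 higher in B16. Vil1, the villin of the brush border, was higher in B16, at 0 to 0.0502 FPKM in MC38 and 1.01 to 1.91 FPKM in B16, a difference of -1.24 ± 0.096 (SE, limma adjusted p = 1.32e-07). Lgals4, a galectin of the gut, was at 0.386 to 1.08 FPKM and 0.729 to 1.64 FPKM, and its call was lost in 3 of the alternative fits.

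General epithelial genes were low in both tumours and uneven across the MC38 libraries. Of 22 listed genes 14 stayed under 1 FPKM in all MC38 libraries and all 22 in all B16 libraries. The 3 that were tested could pass the filter only through MC38, and all were called higher there. Cdh1, the E-cadherin of epithelial junctions, was at 1.07, 1.73 and 3.01 FPKM in MC38 and 0.208, 0.265 and 0.425 FPKM in B16, a difference of 1.13 ± 0.13 (SE, limma adjusted p = 6.31e-06). Krt18, a keratin of simple epithelia, ranged over 0 to 5.19 FPKM in MC38 and stayed at 0 to 0.0416 FPKM in B16, with overlapping lines. Its call was lost with all 24 libraries (limma adjusted p = 0.0567), in the anti-PD-1 libraries alone (0.297) and without the 4 libraries that stood apart in a list level (0.0984). Spint1, a protease inhibitor of epithelia, was at 1.99 to 4.35 FPKM and 0.187 to 0.697 FPKM. Epcam and Krt8 were too low to be tested, with highest MC38 libraries of 1.75 and 3.10 FPKM. MC38 with anti-PD-1 replicate 1 held the highest summed level of 12 skin and keratinocyte genes, 32.8 FPKM against 5.58 to 8.78 FPKM in the other 5, and the part of skin in the epithelial values was not tested.

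MC38 carried the mesenchymal genes instead. Of 17 tested genes of the mesenchymal state 14 were higher in MC38, 2 in B16 and 1 was not called (median difference 2.69). Of all genes 37.1% were called toward MC38 and 36.4% toward B16. In every B16 library 6 of the 18 listed genes stayed under 1 FPKM. Those of them that were tested passed the filter only through MC38, so for them the filter itself favoured that direction. S100a4, a calcium-binding protein of motile mesenchymal cells, was at 552, 701 and 916 FPKM in MC38 and 4.91, 11.9 and 14.1 FPKM in B16, a difference of 5.96 ± 0.23 (SE, limma adjusted p = 1.8e-10). Fn1, fibronectin, was at 181 to 284 FPKM in MC38 and 4.93 to 17.6 FPKM in B16, and Axl, a receptor tyrosine kinase, at 103 to 122 FPKM and 2.97 to 15.2 FPKM. The ranges of all 3 genes were far apart. The transcription factors Twist1, Zeb1, Snai1 and Prrx1, which the list holds beside them, differed by 3.97, 3.23, 3.22 and 3.32; these 4 were picked after their values were seen. The 2 genes higher in B16 were Cdh2, the neural cadherin, at 6.81 to 8.85 FPKM in B16 and 1.94 to 2.34 FPKM in MC38, and Zeb2, at 8.26 to 10.6 FPKM and 6.62 to 8.17 FPKM. Host fibroblasts also express several of these genes, and 15 of 18 tested fibroblast and matrix genes were higher in MC38, 1 in B16 and 2 were not called (median difference 2.46). Their part in the mesenchymal values was not tested.

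The fibroblast and matrix genes themselves differed widely in size. Dcn, the matrix proteoglycan decorin, was at 127, 212 and 266 FPKM in MC38 and 0.190, 3.74 and 9.32 FPKM in B16, a difference of 5.60 ± 0.42 (SE, limma adjusted p = 8.95e-08). Col6a1, a chain of collagen VI, was at 167 to 296 FPKM in MC38 and 3.55, 7.42 and 11.998 FPKM in B16, and Pdpn, podoplanin, at 68.2 to 94.6 FPKM and 1.38 to 4.77 FPKM. Col1a1, the main chain of collagen I, was at 22.8, 40.2 and 144 FPKM in MC38 and 4.30, 31.8 and 45.99 FPKM in B16, and its difference of 1.11 ± 0.59 (SE, limma adjusted p = 0.109) was not called. The libraries of the lines overlapped for Col1a1 and not for Col6a1. Fbln1, fibulin, was the 1 gene of the list higher in B16, at 18.96 to 20.8 FPKM against 7.69 to 9.61 FPKM.

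Other top genes of MC38 were not on a lineage list. H19, an imprinted RNA of fetal tissue, was at 119.8, 265 and 412 FPKM in MC38 and 0.0826, 0.608 and 1.498 FPKM in B16, a difference of 7.26 ± 0.24 (SE, limma adjusted p = 4.13e-11). Its neighbour Igf2, a fetal growth factor imprinted from the other parent's copy and named after its value was seen, was at 0.0611, 3.35 and 14.1 FPKM in MC38 and listed at 0 in all 6 B16 libraries. Both lay higher in MC38 in every library, and Igf2 was far more uneven than H19. Il1rl1, the receptor of IL-33, was at 67.4 to 92.00 FPKM in MC38 and 0.0419 to 0.290 FPKM in B16, Cd34, a sialomucin of stem and endothelial cells, at 166 to 214 FPKM and 1.70 to 4.38 FPKM, and Rhox5, an X-linked homeobox gene, at 194 to 236 FPKM and 3.32 to 4.35 FPKM. Shisal2b was at 32.7 to 90.6 FPKM in MC38 and listed at 0 in all B16 libraries. Htra1, a secreted serine protease, Medag and Thbs2, a matrix thrombospondin, differed by 5.72, 5.68 and 5.37 on the log2 scale.

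Hox genes record the body position from which cells come, and the clusters differed between the lines. Of 39 Hox genes in the files 29 were tested, 18 were higher in MC38 and 6 in B16. In the Hox C cluster all 8 tested genes were higher in MC38 (median difference 1.82), and all 9 genes stayed under 1 FPKM in every B16 library. The 8 thus passed the filter only through MC38, and the filter itself favoured that direction. The 9 genes summed to 34.7 to 38.4 FPKM in MC38 and 0.171 to 0.746 FPKM in B16. Hoxc10 was at 13.2, 13.8 and 15.3 FPKM in MC38 and 0, 0 and 0.0581 FPKM in B16, a difference of 3.89 ± 0.054 (SE, limma adjusted p = 1.42e-14). Hoxc6 was at 5.99 to 10.4 FPKM and 0.0513 to 0.173 FPKM, and Hoxc11 at 4.10 to 5.81 FPKM in MC38 and listed at 0 in all B16 libraries.

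The other clusters were mixed. In Hox D 4 of 5 tested genes were higher in MC38, among them Hoxd9 at 4.64 to 7.94 FPKM against 0 to 0.160 FPKM, and Hoxd4 was higher in B16 at 2.70 to 4.04 FPKM against 0.311 to 1.94 FPKM. In Hox A 4 of 11 were higher in MC38, 3 in B16 and 4 were not called (median 0.08, which turned to -0.04 after quantile normalization and to -0.0084 without MC38 anti-PD-1 replicate 2). Hoxa13, the most posterior gene of that cluster, was at 1.06 to 1.98 FPKM in MC38 and listed at 0 in all 6 B16 libraries. Hoxa7 was at 9.85 to 12.8 FPKM and 3.04 to 4.48 FPKM. In Hox B 2 of 5 were higher in MC38 and 2 in B16, of which Hoxb9 was at 2.09 to 4.85 FPKM in B16 and 0.0524 to 0.282 FPKM in MC38.

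**Figure D3:**
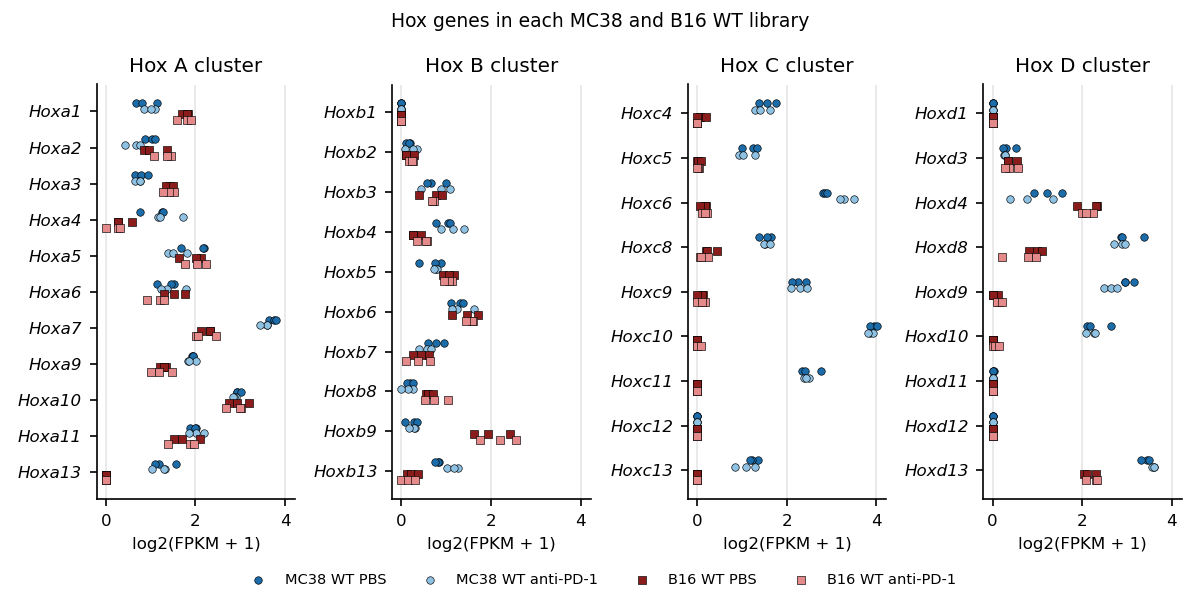
Level of the 39 Hox genes in each of the 12 libraries, as log2(FPKM + 1), with 1 panel for each cluster and genes in order of their number. Each marker is a library, circles MC38 and squares B16, dark PBS and light anti-PD-1. The 8 tested Hox C genes lie higher in MC38 with B16 near 0.

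Growth control genes were high in either line, gene by gene. Cdkn2a, the locus of the inhibitors p16 and p19ARF, was at 3.37, 4.63 and 4.92 FPKM in MC38 and listed at 0 in all 6 B16 libraries, a difference of 2.44 ± 0.073 (SE, limma adjusted p = 2.02e-11). Its neighbour Cdkn2b, which encodes p15, was at 11.9 to 16.3 FPKM in MC38 and 0 to 0.297 FPKM in B16. Cdkn1a, the p21 inhibitor and a target of p53, ran the other way, at 8.91, 11.6 and 15.7 FPKM in MC38 and 34.6, 43.6 and 51.4 FPKM in B16, a difference of -1.78 ± 0.12 (SE, limma adjusted p = 5.16e-08). No library of one line reached the range of the other for these 3 genes. Trp53 itself was at 15.7 to 22.9 FPKM and 13.02 to 16.2 FPKM, with overlapping ranges and a difference of 0.29 ± 0.088 (SE, limma adjusted p = 0.0103), and its call was lost in 3 of the alternative fits. Of 14 tumour suppressors and inhibitors 4 were higher in MC38, 8 in B16 and 2 were not called.

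Targets of p53 were called in both directions at about the shares of all genes, with 9 of 23 tested genes higher in MC38, 10 in B16 and 4 not called. Eda2r, a death-domain receptor, was at 16.9 to 24.5 FPKM in MC38 and 0.0474 to 0.344 FPKM in B16, and Plk2, a kinase of the stress response, at 22.9 to 32.2 FPKM and 1.98 to 3.33 FPKM. Trp53inp1 and Zmat3, which also respond to p53, were higher in B16, at 8.70 to 14.1 FPKM against 2.47 to 3.30 FPKM and 6.45 to 7.77 FPKM against 1.99 to 2.60 FPKM. Cell cycle genes were likewise called in both directions, with 8 of 27 higher in MC38, 9 in B16 and 10 not called (median 0.03). Over all genes 37.1% were called toward MC38 and 36.4% toward B16.

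Outputs of the MAPK pathway, which growth factor receptors and RAS feed, were also divided. Of 16 tested genes 8 were higher in MC38, 3 in B16 and 5 were not called. Over all genes 37.1% were called toward MC38 and 36.4% toward B16. Fosl1, an AP-1 factor, was at 20.3, 29.5 and 35.6 FPKM in MC38 and 0, 0.0218 and 0.202 FPKM in B16, a difference of 4.79 ± 0.11 (SE, limma adjusted p = 1.38e-12). Epha2, an ephrin receptor, and Ccnd1, cyclin D1, differed by 2.83 and 2.34. Toward B16 lay the feedback phosphatases Dusp4, at 34.01 to 50.6 FPKM against 1.61 to 2.47 FPKM, and Dusp6, at 50.2 to 67.3 FPKM against 17.1 to 24.2 FPKM, with Phlda1 at 107 to 183 FPKM against 9.41 to 19.2 FPKM. Called genes in both directions were also found over all genes tested, so this division is not particular to the pathway. Targets of the Wnt pathway, which is often active in colon cancer, were called higher in MC38 for 4 of 7 tested genes and in B16 for 1; 9 of 15 listed genes stayed under 1 FPKM in all MC38 libraries. Tcf7, a Wnt effector that T cells also express, was at 5.75 to 6.98 FPKM and 0.428 to 1.82 FPKM.

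Receptors and ligands of growth factors were more often higher in MC38, with 13 of 16 tested genes against 2 in B16. Of all genes 37.1% were called toward MC38 and 36.4% toward B16. In every B16 library 9 of the 21 listed genes stayed under 1 FPKM. Those of them that were tested passed the filter only through MC38, so for them the filter itself favoured that direction. Pdgfra, a receptor of fibroblasts, was at 10.3 to 29.97 FPKM in MC38 and 0.0722 to 1.01 FPKM in B16, and Fgfr1 at 13.1 to 19.8 FPKM and 0.340 to 1.27 FPKM. Kitl, the ligand of the receptor KIT of melanocytes and mast cells, was at 21.6, 26.2 and 28.9 FPKM in MC38 and 0.767, 1.09 and 1.75 FPKM in B16, a difference of 3.63 ± 0.11 (SE, limma adjusted p = 2.53e-11). The 2 genes higher in B16 were Met, the hepatocyte growth factor receptor, at 38.3 to 55.8 FPKM against 7.01 to 13.5 FPKM, and Erbb3, at 7.98 to 14.8 FPKM against 4.65 to 6.36 FPKM. Among matrix proteases and their inhibitors 11 of 14 were higher in MC38, 1 in B16 and 2 were not called. Mmp9, a gelatinase of myeloid cells and invasive tumours, was at 11.2 to 24.7 FPKM in MC38 and 0 to 0.541 FPKM in B16.

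B16 had the higher levels of respiratory genes. Of 25 nuclear genes of oxidative phosphorylation 23 were higher in B16, 2 were not called and 0 were higher in MC38 (median difference -0.75, against 0.0024 over all genes and 36.4% of them called toward B16). The summed level was 1303 to 1422 FPKM in MC38 and 2286 to 2623 FPKM in B16. Ppargc1a, a coactivator of mitochondrial biogenesis that MITF controls in melanoma, was at 0, 0 and 0.0648 FPKM in MC38 and 27.4, 37.9 and 42.6 FPKM in B16, a difference of -5.19 ± 0.088 (SE, limma adjusted p = 1.03e-13). The MC38 libraries were at or near 0 for it. Ndufa4 and Cox5b, subunits of the respiratory chain, differed by -2.03 and -1.53. The 13 genes of the mitochondrial genome did not follow, with 5 higher in MC38, 4 in B16 and 4 not called. Their median of -0.13 turned to 0.00 after quantile normalization and to 0.01 in the PBS libraries alone.

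Hypoxia and glycolysis genes leaned toward B16, with 13 of 20 higher there, 5 in MC38 and 2 not called (median difference -0.71). Of all genes 36.4% were called toward B16 and 37.1% toward MC38. Car9, the carbonic anhydrase induced by hypoxia, was at 2.74, 4.11 and 7.19 FPKM in MC38 and 39.8, 60.02 and 85.6 FPKM in B16, a difference of -3.51 ± 0.20 (SE, limma adjusted p = 6.33e-09). Pfkp, a phosphofructokinase, was at 21.6 to 31.1 FPKM in B16 and 3.46 to 5.08 FPKM in MC38, and Eno1, an enolase, at 467 to 657 FPKM and 162 to 186 FPKM. The exceptions included Egln3, a prolyl hydroxylase that is itself a target of hypoxia, at 26.1 to 43.4 FPKM in MC38 and 1.73 to 3.50 FPKM in B16, and P4ha1, a collagen hydroxylase, at 66.5 to 91.3 FPKM and 31.2 to 43.8 FPKM. The list thus held called genes in both directions, as did all genes tested.

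Immune markers were higher in MC38. Across 10 lists of immune cell markers 117 genes were in the files and 82 were tested. Of these 76 were higher in MC38, 0 in B16 and 6 were not called, where 37.1% of all genes were called toward MC38. Part of this count was set by the filter. In every B16 library 11 of 15 pan T cell, 9 of 13 CD8 and cytotoxic and 9 of 12 natural killer genes stayed under 1 FPKM. Those of them that were tested passed only through MC38, so for them the filter itself favoured that direction. Of the 20 macrophage and monocyte genes 1 stayed so low in B16. For 9 of the 10 lists the summed level of every MC38 library exceeded that of every B16 library. The mast cell list was the exception, at 4.37 to 43.9 FPKM in MC38 and 0.0815 to 5.02 FPKM in B16, where B16 with anti-PD-1 replicate 2 stood highest. Without the 2 B16 libraries at the ends of the immune range (anti-PD-1 replicates 1 and 2) all 11 tested pan T cell genes and 19 of 20 macrophage genes were still called, while of the 4 tested neutrophil genes 2 were then called higher in MC38 and 2 higher in B16.

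T cell markers were present in MC38 and low in most B16 libraries. All 11 tested pan T cell genes were higher in MC38 (median difference 1.70), and the 15 listed genes summed to 42.6 to 59.4 FPKM in MC38 and 1.59 to 13.3 FPKM in B16, a ratio of medians of 12.7. Cd3e, a chain of the T cell receptor complex, was at 0.989, 1.61 and 1.75 FPKM in MC38 and 0, 0.0218 and 0.341 FPKM in B16, a difference of 1.18 ± 0.11 (SE, limma adjusted p = 8.56e-07). Cd8a, the coreceptor of cytotoxic T cells, was at 3.99, 6.29 and 7.06 FPKM and 0, 0.248 and 0.725 FPKM, a difference of 2.45 ± 0.14 (SE, limma adjusted p = 1.04e-08). Cd4 was at 0.851 to 1.81 FPKM and 0.0794 to 0.437 FPKM. The lines did not overlap for any of the 3 genes. Foxp3, the factor of regulatory T cells, was too low to be tested, at 0.0541 to 0.461 FPKM and 0.0211 to 0.109 FPKM, while 4 of 5 other tested genes of that list were higher in MC38.

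Genes of cytotoxic cells were also higher in MC38. All 11 tested genes of the CD8 and cytotoxic list were called (median difference 2.44). Gzmb, a granule protease, was at 14.7, 22.6 and 33.97 FPKM in MC38 and 0.0691, 0.402 and 3.17 FPKM in B16, a difference of 3.93 ± 0.30 (SE, limma adjusted p = 1.09e-07). Prf1, perforin, was at 4.18 to 8.36 FPKM and 0 to 0.885 FPKM. Ifng, the cytokine interferon-gamma, was at 2.07, 3.85 and 4.24 FPKM in MC38 and 0, 0 and 0.449 FPKM in B16, a difference of 2.06 ± 0.15 (SE, limma adjusted p = 6.7e-08). Natural killer genes were also higher in MC38 for all 11 tested, and Ncr1, a receptor of these cells, was at 0.638 to 2.76 FPKM and 0 to 0.0421 FPKM.

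One gene dominated the natural killer list. Klra4, a receptor of the Ly49 family for MHC class I, was at 91.5, 123 and 164 FPKM in MC38 and 0, 0 and 0.189 FPKM in B16, a difference of 6.85 ± 0.12 (SE, limma adjusted p = 9.18e-14), and made up 74.0% to 85.5% of the list's sum in MC38. The other 11 genes together came to 24.3 to 36.04 FPKM in MC38 and 0.125 to 6.93 FPKM in B16. Within MC38 the 3 anti-PD-1 libraries had Klra4 at 164, 144 and 134 FPKM, and the 3 PBS libraries at 91.5, 113 and 92.4 FPKM. Klra4 thus stood at several times the level of the other listed genes together in MC38. The effect of treatment on Klra4 within MC38 was not tested. The family is made of near-identical genes, so the split of reads among its members is uncertain.

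The macrophage list had the highest summed FPKM of the 10 immune lists. Of 20 macrophage and monocyte genes 19 were higher in MC38 and 1 was not called (median difference 2.55), and their sum was 1838 to 2231 FPKM in MC38 and 125 to 620.2 FPKM in B16, a ratio of medians of 7.44. C1qa, a complement chain made by tissue macrophages, was at 314, 326 and 333 FPKM in MC38 and 8.24, 32.9 and 74.6 FPKM in B16, a difference of 3.38 ± 0.37 (SE, limma adjusted p = 3.84e-06). Csf1r, the receptor on which macrophages depend, was at 23.9 to 28.4 FPKM and 0.917 to 7.35 FPKM, and Adgre1, which encodes the F4/80 antigen, at 30.1 to 45.9 FPKM and 1.84 to 16.4 FPKM. All 3 were separate between the lines. The level of each varied several-fold among the B16 libraries. Il34 and Csf1, the ligands of Csf1r, were also higher in MC38, at 15.9 to 23.2 FPKM against 0.0554 to 0.520 FPKM and 17.9 to 24.2 FPKM against 2.55 to 6.57 FPKM; Csf1 was picked after its value was seen.

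Other leukocytes were at lower levels. Itgax, an integrin of dendritic cells and some macrophages, was at 8.92, 10.3 and 12.7 FPKM in MC38 and 0.142, 0.219 and 1.29 FPKM in B16, a difference of 3.01 ± 0.18 (SE, limma adjusted p = 9.17e-09), and 6 of 8 tested genes of conventional dendritic cells were higher in MC38. That count fell to 2 of 8 in the anti-PD-1 libraries alone, and to 4 with 1 higher in B16 after quantile normalization. For B and plasma cells 5 of 12 listed genes were tested, all higher in MC38. One of them, Igkc, an immunoglobulin chain, lost its call in 1 alternative. For neutrophils Ly6g was listed at 0 in all 12 libraries and S100a8 was at 0.308 to 1.86 FPKM and 0 to 2.52 FPKM, a difference of -0.34 ± 0.30 (SE, limma adjusted p = 0.332) that was not called. S100a8 was called higher in B16 without B16 anti-PD-1 replicates 1 and 2 (-0.80, limma adjusted p = 0.00938) and in the PBS libraries alone (-0.81, limma adjusted p = 0.0135), and without MC38 PBS replicate 1 the list had 1 gene called higher in B16. Only Mmp9 and Csf3r of the 4 tested neutrophil genes were higher in MC38, and both are also expressed by macrophages. Elane and Mpo, granule genes of neutrophil precursors, were listed at 0 in all 12 libraries.

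**Figure D4:**
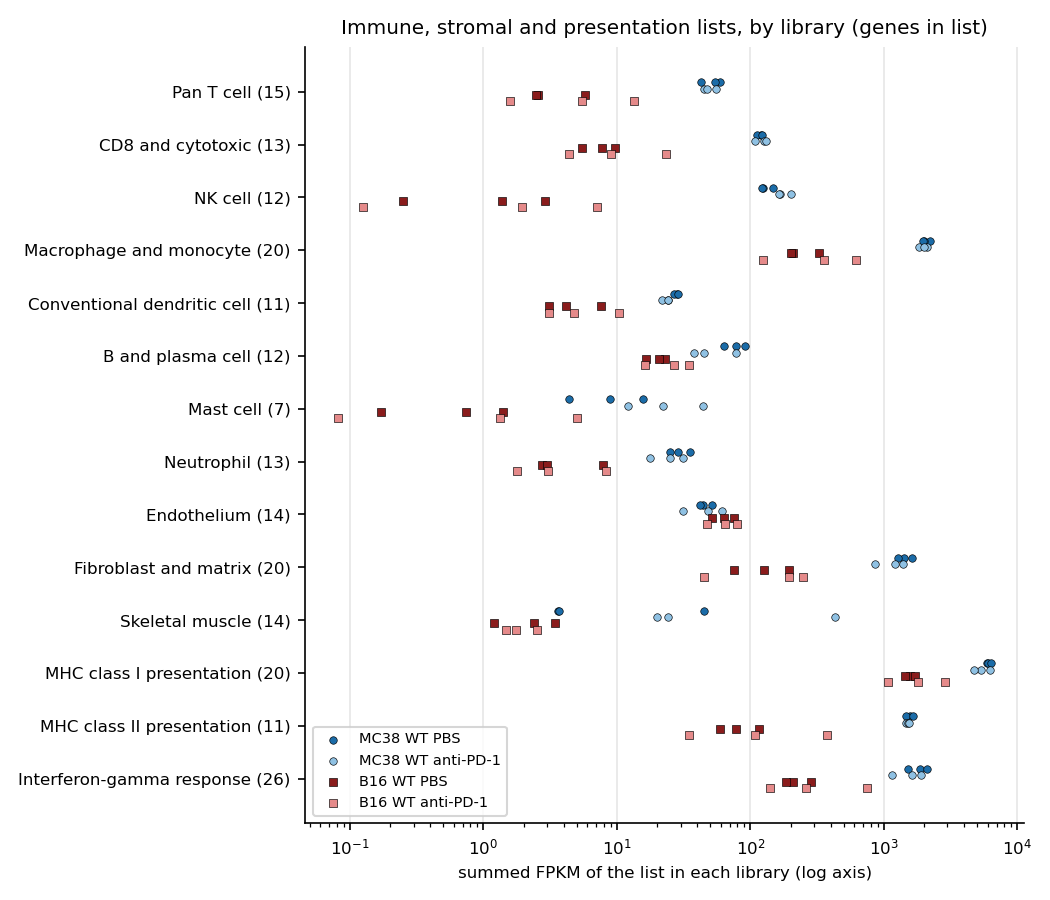
Summed FPKM of 14 gene lists in each of the 12 libraries, on a log axis, with the number of genes of each list in brackets. Each marker is a library, circles MC38 and squares B16, dark PBS and light anti-PD-1. The immune, fibroblast, antigen presentation and interferon-gamma lists lie higher in MC38, the endothelium list overlaps, and light squares (B16 anti-PD-1) stand at both ends of most B16 ranges.

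Vessels did not follow the leukocytes. Of 13 tested endothelial genes 2 were higher in MC38, 1 in B16 and 10 were not called (median difference -0.07), and the list summed to 31.1 to 61.8 FPKM in MC38 and 47.5 to 79.7 FPKM in B16. Pecam1, the CD31 antigen, was at 5.19, 6.36 and 8.67 FPKM in MC38 and 3.92, 4.59 and 6.95 FPKM in B16, a difference of 0.35 ± 0.14 (SE, limma adjusted p = 0.0361), and its call was lost in 14 of the alternatives. Eng, an endothelial coreceptor of TGF-beta that other cells also make, was at 20.9 to 30.6 FPKM in B16 and 4.29 to 7.38 FPKM in MC38. Without the 4 libraries that stood apart in a list (MC38 anti-PD-1 replicates 1 and 2, B16 anti-PD-1 replicate 2 and B16 PBS replicate 3), 1 endothelial gene was higher in MC38 and 5 in B16. Pericyte and smooth muscle genes were also mostly not called, 6 of 9, and globin and other erythroid genes were not called in any of 5 tests.

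Antigen presentation genes were higher in MC38 as a group. All 9 tested MHC class II genes were higher in MC38 (median difference 3.89, the highest of the lists with 5 or more genes tested), with a sum of 1465 to 1649.8 FPKM in MC38 and 34.7 to 378 FPKM in B16. Cd74, the invariant chain, was at 285, 345 and 389 FPKM in MC38 and 7.98, 21.2 and 109 FPKM in B16, a difference of 3.89 ± 0.47 (SE, limma adjusted p = 8.64e-06). H2-Ab1, a class II chain, was at 95.4 to 143 FPKM and 2.18 to 37.01 FPKM, and Ciita, the master regulator of the class, at 2.23 to 3.11 FPKM and 0.00801 to 2.19 FPKM. The highest B16 library, anti-PD-1 replicate 2, stayed under the lowest MC38 library for all 3.

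MHC class I genes, which tumour cells as well as host cells express, were higher in MC38 for 19 of 20 tested, with 1 not called (median difference 2.60). H2-K1, a classical class I heavy chain, was at 256, 325 and 371 FPKM in MC38 and 4.92, 14.3 and 45.2 FPKM in B16, a difference of 4.34 ± 0.38 (SE, limma adjusted p = 4.12e-07). H2-D1, the other classical chain, was at 589 to 839.6 FPKM and 43.3 to 212 FPKM. B2m, the light chain that every class I molecule shares, was at 2564, 3433 and 3731 FPKM in MC38 and 481, 945 and 1938 FPKM in B16, a difference of 1.78 ± 0.26 (SE, limma adjusted p = 4.16e-05). On the FPKM scale the ratio of means was 17.5 for H2-K1, 6.75 for H2-D1 and 3.18 for B2m. None of the 3 overlapped between the lines. Tap1, the peptide transporter, was at 23.1 to 32.9 FPKM and 1.45 to 9.95 FPKM, and Nlrc5, the activator of class I genes, at 21.1 to 24.7 FPKM and 1.36 to 13.9 FPKM. The largest difference of the list was that of H2-Q6 (5.73), a nonclassical gene with near-identical neighbours whose reads may be split.

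Interferon response genes followed. Of 26 genes of the interferon-gamma response 25 were higher in MC38 and 1 in B16 (median difference 2.07), and the list summed to 1150.0 to 2115 FPKM in MC38 and 139.6 to 749 FPKM in B16. Gbp2, a guanylate-binding protein of cell-autonomous defence, was at 258, 430.2 and 570.0 FPKM in MC38 and 3.15, 11.5 and 97.1 FPKM in B16, a difference of 4.83 ± 0.60 (SE, limma adjusted p = 1.06e-05). Cxcl9, a chemokine that draws T cells, was at 79.6, 140.2 and 149.7 FPKM in MC38 and 0.365, 2.64 and 28.3 FPKM in B16, a difference of 4.70 ± 0.59 (SE, limma adjusted p = 1.19e-05). Cxcl10, a related chemokine that type I interferon also induces, was at 91.1, 156 and 212 FPKM and 38.5, 58.4 and 92.4 FPKM, a difference of 1.40 ± 0.23 (SE, limma adjusted p = 0.000132) with overlap between the lines. The 1 gene higher in B16 was Ifngr2, a chain of the receptor, at 20.2 to 23.5 FPKM against 17.5 to 20.3 FPKM with overlapping libraries, and it lost its call in 2 alternatives. Of 24 genes of the type I interferon response 21 were higher in MC38 and 3 were not called (median difference 1.51). For 12 of the 24 the lines did not overlap, about the share of all genes (55.2%).

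The promoter of Gbp2, the interferon-gamma gene with the largest difference, is shown for its match to the interferon-stimulated response element, a motif of interferon target genes (searched on both strands). Its window is chr3:142620413-142620712 on the plus strand (RefSeq, GRCm38.p6), and the capitals mark the 1 match, 59 bases before the start.
Gbp2: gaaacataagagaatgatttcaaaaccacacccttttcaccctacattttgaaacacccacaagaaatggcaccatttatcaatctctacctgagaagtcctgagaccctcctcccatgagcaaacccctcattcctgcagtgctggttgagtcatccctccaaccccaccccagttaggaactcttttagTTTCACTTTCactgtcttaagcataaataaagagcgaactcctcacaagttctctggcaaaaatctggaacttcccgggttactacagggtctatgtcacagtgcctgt

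That element was in 1131 of 32851 windows (3.44%), in 9 of 21 windows of the interferon-gamma list (42.9%), in 10 of 20 of the type I list and in 4 of 18 of the class I list (22.2%).

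Chemokines and checkpoint genes gave a less even picture. Of 10 tested T cell chemokines and receptors 9 were higher in MC38 and 1 was not called, and of 10 tested myeloid chemokines and growth factors 7 were higher in MC38 and 3 were not called. Ccl2, the monocyte attractant, was at 202, 234 and 287 FPKM in MC38 and 7.50, 13.8 and 23.9 FPKM in B16, a difference of 4.05 ± 0.21 (SE, limma adjusted p = 3.47e-09). Pdcd1, which encodes PD-1, was at 1.46, 3.18 and 3.89 FPKM in MC38 and 0, 0.143 and 0.779 FPKM in B16, a difference of 1.72 ± 0.16 (SE, limma adjusted p = 5.64e-07). Its ligand Cd274 (PD-L1) was at 22.5, 29.8 and 50.1 FPKM and 13.5, 17.8 and 33.3 FPKM, a difference of 0.75 ± 0.21 (SE, limma adjusted p = 0.00697) with overlapping libraries, and lost its call in 1 alternative. PD-1 was thus separate between the lines and its ligand was not. In every B16 library 6 of 14 checkpoint genes stayed under 1 FPKM. These passed the filter only through MC38, so for them the filter itself favoured that direction. Of all genes 37.1% were called toward MC38 and 36.4% toward B16. Of the 14 checkpoint genes 10 were higher in MC38, 2 in B16 and 2 were not called. The 2 in B16 were Cd276, the ligand B7-H3, at 5.96 to 7.63 FPKM against 2.03 to 3.43 FPKM, and Nectin2, a ligand of TIGIT, at 4.17 to 4.77 FPKM against 2.70 to 3.79 FPKM.

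Of 10 tested inflammatory cytokines 8 were higher in MC38, led by Tgfb3 at 15.8 to 45.6 FPKM against 2.91 to 4.51 FPKM. Of 14 tested complement genes 11 were higher in MC38 and 3 in B16, against 37.1% and 36.4% of all genes. Of those 3 calls toward B16, all but that of C2 were lost in some alternatives. These included the anti-PD-1 libraries alone (limma adjusted p = 0.311 and 0.648) and the fit with no filter (0.071 and 0.0778). C3, the central component, was at 19.9 to 53.3 FPKM in MC38 and 0.285 to 14.3 FPKM in B16, whereas C2 was at 0.878, 1.57 and 3.99 FPKM in MC38 and 19.8, 22.9 and 34.6 FPKM in B16, a difference of -3.24 ± 0.22 (SE, limma adjusted p = 4.68e-08). Of 12 tested sensors of cytosolic nucleic acids 9 were higher in MC38 and 3 were not called (median difference 0.80).

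**Figure D5:**
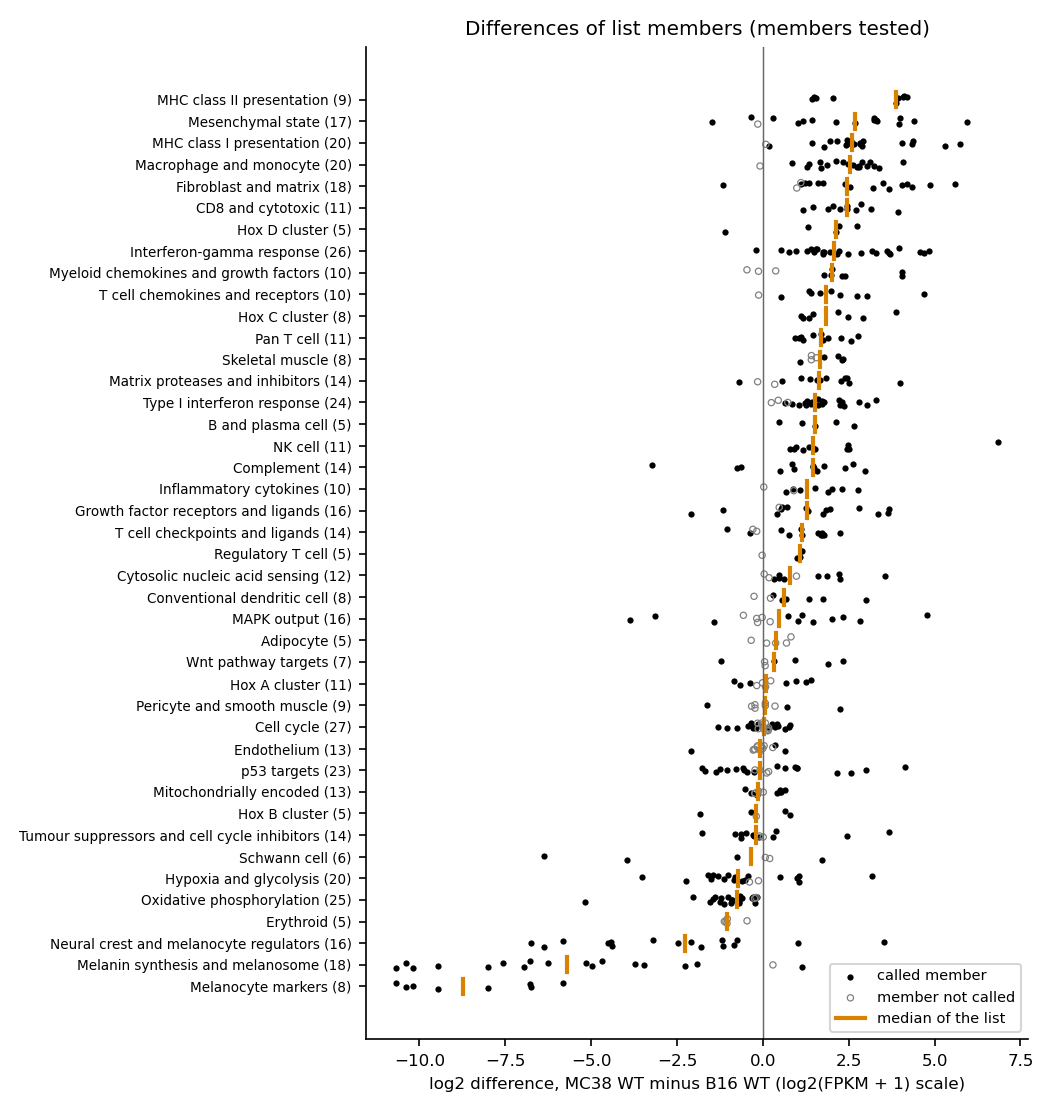
Differences between the lines, MC38 minus B16 on the log2(FPKM + 1) scale, for the tested members of each list with at least 5 of them; the number tested is in brackets. Filled points were called, open points were not, and the orange bar is the median of the list. The medians run from -8.73 for melanocyte markers to 3.89 for MHC class II, with the endothelium and cell cycle lists at -0.07 and 0.03.

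Immune content varied several-fold among the B16 libraries. In 9 of the 10 immune lists B16 with anti-PD-1 replicate 2 was the highest B16 library, and in 9 of 10 B16 with anti-PD-1 replicate 1 was the lowest. The pan T cell sum was 2.57, 5.78 and 2.48 FPKM in the 3 PBS libraries of B16 and 1.59, 13.3 and 5.44 FPKM in its 3 anti-PD-1 libraries. In MC38 it was 59.4, 54.7 and 42.6 FPKM with PBS and 54.9, 45.3 and 47.1 FPKM with anti-PD-1. The 2 extreme B16 libraries belonged to the same treatment. Cxcl9 spread in the same way, at 0.365, 28.3 and 3.18 FPKM in B16 anti-PD-1 replicates 1, 2 and 3. Replicates 1 and 2 also had the highest summed erythroid levels of B16, 1051 and 2568 FPKM against 177 to 334 FPKM in the other 4.

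Xist, the RNA that coats the inactive X chromosome of female cells, ran broadly with the pan T cell sum in B16. It was at 11.7, 18.3 and 23.1 FPKM in MC38 and 1.81, 3.19 and 6.57 FPKM in B16, a difference of 2.06 ± 0.23 (SE, limma adjusted p = 4.35e-06). Within B16 it stood at 1.81, 2.19, 2.49, 3.89, 5.15 and 6.57 FPKM from the lowest library to the highest (anti-PD-1 1, PBS 1, PBS 3, anti-PD-1 3, PBS 2 and anti-PD-1 2). The lowest and the highest are those of the pan T cell sum. In MC38 the library with the highest Xist (anti-PD-1 replicate 1) was not that of the highest pan T cell sum (PBS replicate 1). Ddx3y, a gene of the Y chromosome, was listed at 0 in all 12 libraries. The part of host cell content in the immune differences was not tested.

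Muscle genes were high in 1 MC38 library. The sum of 14 skeletal muscle genes was 434 FPKM in MC38 with anti-PD-1 replicate 2, 3.62 to 44.7 FPKM in the other 5 and 1.20 to 3.43 FPKM in B16. The same library had the highest summed level of 8 adipocyte genes, 117 FPKM. Of 8 tested muscle genes 5 were called higher in MC38, 2 without the 4 libraries that stood apart and 1 without B16 anti-PD-1 replicates 1 and 2. The counts of called pan T cell genes (11 of 11) and macrophage genes (19 of 20) were the same without those libraries.

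Almost no gene had a line difference that was called to depend on the treatment. A line by treatment interaction was called by limma for 1 of 14690 genes (0.00681%), with 1037 at an unadjusted p under 0.05, and for no gene on any list. The 1 gene, 4930453N24Rik, was named only after its values were seen. It was at 8.58, 9.06 and 8.503 FPKM in MC38 with PBS and 8.37, 7.11 and 8.33 FPKM with anti-PD-1. In B16 it was at 2.10, 2.30 and 2.44 FPKM with PBS and 6.84, 6.18 and 6.48 FPKM with anti-PD-1. The PBS and anti-PD-1 libraries of B16 did not overlap, and the interaction was -1.32 ± 0.11 (SE, limma adjusted p = 0.00268). It was not called when all 24 libraries were fitted together (limma adjusted p = 0.422) or without the 4 libraries that stood apart (0.125). With 3 libraries a group, an interaction that was not called does not show that the treatments acted alike.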

How the data were processed

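Bulk RNA of tumour tissue was sequenced. The authors deposited one table of FPKM values per library; per the submitters' processing notes, FastQC, STAR 2.5, Cuffnorm and DESeq were used with the mouse build mm10. The values are normalized and are not counts, so no count test was run. Depth was estimated from the smallest steps of the FPKM values, of which 25.7% to 30.3% came out as whole fragments, too few to recover counts. Gene identifiers were matched to GENCODE M21 symbols (55154 of 55335 rows).

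Line, treatment and, in a second fit, their interaction were fitted on the log2(FPKM + 1) scale by limma 3.58.1 under R 4.3.3 (moderated test, variance trend, Benjamini-Hochberg adjustment over 14690 genes with at least 1 FPKM in 3 libraries). The fit was also run on simulated data in which few genes were changed. Most genes differed in the real data, so that run does not test the calls made here. Named genes were Chek2, a panel of lineage and immune genes, the 12 largest differences in each direction with no overlap between the lines and at least 1 FPKM on average in the higher line, and up to 3 called genes in each direction per list. The members, the lists and the rule were chosen with earlier results of these data known. Promoter windows came from RefSeq. Alternatives changed the pseudocount, filter, scaling, variance model and libraries. The 12 CHEK2-knockout libraries were left out, except in the alternative with all 24. Some named genes are not reported here.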

Additional observations from a re-analysis of the deposited data

Results flagged for a closer look

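A check of 49 list levels (mean log2(FPKM + 1)) within the 6 libraries of each line covered 98 groups of values. In 4 of them a single library lay far from the rest of its line. Chance gives about 1 such library in 20 groups of values, so 4 of 98 is no more than chance gives. The skeletal muscle level of MC38 anti-PD-1 replicate 2 was 4.43, with the next library at 1.77. The skin and keratinocyte level of MC38 anti-PD-1 replicate 1 was 1.39, with the next at 0.45. The mast cell level of B16 anti-PD-1 replicate 2 was 0.678, with the next at 0.25. The oxidative phosphorylation level of B16 PBS replicate 3 was 6.32, with the next at 6.20.

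The effect of anti-PD-1 was called to differ between the lines for 4930453N24Rik, with an interaction of -1.32 on the log2 scale by the limma test of the difference itself. It was the 1 gene called of 14690. Its call was lost with all 24 libraries (limma adjusted p = 0.422) and without the 4 libraries that stood apart (0.125).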

How the results depend on the processing

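Over 27 alternatives, 12 of which left out 1 library each, all 108 counts of called genes for the line difference stayed within 1.5 times the reported count. The interaction count was 1; it was 6 with no filter, 0 with all 24 libraries, 0 without the 4 libraries apart, 5 without the B16 anti-PD-1 replicates 1 and 2, and 1 to 4 with 1 library left out, and the cause was not tested. Some medians changed sign and moved by at least the spread of their list between libraries of a group. These were the pericyte and smooth muscle list (-0.226 at a pseudocount of 0.1 and -0.478 without the 4 libraries), the erythroid list (0.423 in PBS libraries alone), Hox A (-0.0374 after quantile normalization and -0.0084 without MC38 anti-PD-1 replicate 2, up to 0.158 with another library left out) and the mitochondrial genes (0.00 after quantile normalization and 0.0135 in PBS libraries alone). Sign changes smaller than that spread are not listed in full. Among them, the cell cycle median of 0.03 turned to -0.0367 without the 4 libraries and to -0.0248 without B16 anti-PD-1 replicates 1 and 2. Without those 2 libraries the pericyte and smooth muscle median was -0.1062. The difference of mt-Nd4l turned to 0.0459 after quantile normalization (limma adjusted p = 0.528). Of the named genes 22 lost their call under at least 1 alternative. Leaving out 4 libraries or the 2 B16 libraries was chosen after seeing the data. No paired analysis was possible because the labels give no replicate numbers, and the numbers used here follow accession order. FPKM without counts gives no counting error for a gene near 0.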

Other observations

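Cdkn2a and Cdkn2b were part of a stretch of chromosome 4 with little or no RNA in B16. Elavl2 was listed at 0 in all 6 B16 libraries and stood at 1.49 to 2.40 FPKM in MC38, Tusc1 was at 0 to 0.518 FPKM in B16 and 4.00 to 5.18 FPKM in MC38, and Dmrta1 did not exceed 0.0272 FPKM in B16 or 0.367 FPKM in MC38. On either side, Mtap was at 28.6 to 41.1 FPKM and Caap1 at 4.16 to 4.74 FPKM in B16. The starts of Cdkn2a and Tusc1 are at 89274471 and 93334138 (mm10). These neighbours were picked after the value of Cdkn2a was seen, and DNA copy number was not measured.

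Protein-coding genes of chromosome 6 lay toward B16. Their median difference was -0.60 over 592 genes, against 0.001 over all 11912, and 27.9% were called at least 2-fold higher in B16 against 10.4% of all. Chromosome 6 had the lowest median of the 19 autosomes in the reported fit and in all 27 alternatives (-0.69 to -0.58). Of 33 runs of at least 5 neighbouring tested genes called at least 2-fold in the same direction, 25 were higher in MC38 and 8 in B16. The longest was on chromosome 6, where 12 neighbours from Dqx1 to Slc4a5 were all higher in B16 (83057844 to 83304945, median -1.27). The longest runs in MC38 included 11 genes from Aim2 to Ifi205, mostly of the Ifi200 family, on chromosome 1 and 10 genes from H2-DMa to H2-Eb1 in the MHC on chromosome 17. These patterns were noticed in the data and no cause was tested.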
